A study of Homo sapiens with 18 samples.

Results

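The sort-by-drug interaction of ZM447439 asks, gene by gene, whether the difference between cells sorted for 4N and for 2N DNA content was the same with and without the drug. It is the 4N minus 2N difference in ZM447439-treated cells minus the 4N minus 2N difference in untreated cells, on log2(RPKM + 0.5). RPKM is a read count scaled to the length of the gene and to the depth of the library. Genes whose RPKM averaged 0.5 or more across all 18 libraries of the series belong to it, which makes 13037 of the 57773 genes in the deposited table. The cells were hTERT-RPE1, an established human line derived from retinal pigment epithelium and immortalised with telomerase. The 12 libraries compared here came from 4 groups of 3: untreated 2N, untreated 4N, ZM447439 2N and ZM447439 4N. The dose of ZM447439 was 2.5 µM and the exposure 24 h. All cells, untreated ones included, took up the DNA dye Hoechst 33342 (2 µg/mL, 60 min) before flow sorting. The labels carry 1 treatment text on all libraries, so the untreated state rests on the drug label and title. Cytochalasin D, an actin poison, was given to the other 6 libraries of the series. A positive interaction means that 4N cells stood higher relative to 2N cells under ZM447439 than they did without it, and a negative one that they stood lower.

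DNA content does not name a cell cycle phase. In an untreated diploid culture, cells with 4N content are in G2 or mitosis, and 2N cells are mostly in G1. ZM447439 inhibits Aurora kinases. Aurora B, with INCENP, survivin and borealin, forms the chromosomal passenger complex, which corrects chromosome attachments and is needed for cytokinesis; cells that enter mitosis without its activity tend to leave without dividing and become tetraploid G1 cells with 4N content. Mitotic genes are switched on late in the cycle through the DREAM, B-MYB and FOXM1 system at CHR and CCAAT promoter elements, and replication genes at the G1/S boundary through E2F. What share of each sorted population was in which phase was not measured here.

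The libraries held an implied 51133500 to 78291100 reads, read off the steps between low RPKM values, with a median of 58388150. Those steps fit a length that includes introns, so the RPKM of genes with long introns are low. Of 14 retinal pigment epithelium markers 5 passed the filter. OTX2, a transcription factor of the tissue, ran from 2.26 to 3.44 RPKM and KRT18 from 45.9 to 121, while RPE65, of the visual cycle, reached at most 0.0356 RPKM and the pigment enzymes TYR and DCT at most 0.00275 and 0.000923. The summed level of the list was 139 to 150 RPKM in untreated 2N, 119 to 142 in untreated 4N, 198 to 211 in treated 2N and 147 to 166 in treated 4N cells. BEST1, at 47.1 to 120 RPKM over the libraries, and KRT18 made up most of that sum. The libraries did not mark strand, so reads of an overlapping gene cannot be told from those of BEST1. Whether the BEST1 reads came from BEST1 itself was not tested. The summed level of 9 fibroblast and smooth muscle markers was 63.6 to 74.8, 65.7 to 85, 83 to 92.3 and 64.3 to 90.1 RPKM in the same order of groups. Most of it came from THY1, at 54 to 78.6 RPKM. The part of these shifts in the results was not tested. Of 17 blood cell markers 2 passed the filter, CD68 at 16.6 to 27.9 RPKM and CSF1R at 1.2 to 1.43. PTPRC, the pan-leukocyte marker, reached no more than 0.00325 RPKM. The libraries of each group were not equally close. Untreated libraries numbered 3 differed from those numbered 1 and 2 with an SD of 0.25 to 0.26 over genes on the log2 scale, against 0.17 between numbers 1 and 2. ZM447439 libraries numbered 1 stood further off, with an SD of 0.28 to 0.34 against 0.16 to 0.17. Below, 3 values in a row are the RPKM of libraries numbered 1, 2 and 3.

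The interaction passed the test, an adjusted p under 0.05, in 1317 genes, 10.1% of those tested. It was lower in 858 genes (6.58%) and higher in 459 (3.52%), and the median over all genes was -0.04. Counts of list members below stand against these shares. Most changes were modest: 41 genes fell by at least 1 on the log2 scale and 47 rose by as much. Rescaling the libraries to 1 median ratio gave 649 lower and 540 higher genes, and after quantile normalization it was 717 lower and 596 higher. With the 2N and 4N libraries of a treatment paired by their number, written below as cultures paired, 2505 genes passed. The labels do not state that libraries of the same number share a culture. In bulk RNA, fewer cells of a kind and less RNA per cell cannot be told apart.

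The direction of the interaction followed what the sorts did without drug. In untreated cells 1679 genes were higher in 4N cells (12.9%) and 593 lower (4.55%); under ZM447439 the counts were 679 (5.21%) and 319 (2.45%). Their sum under ZM447439, 998 against 2272 untreated, rested on single libraries. It was 2722 against 2694 without ZM447439 2N library 1, and 208, 230, 227 and 247 without ZM447439 2N library 2 or 3 or 4N library 2 or 3. Without the 6 libraries of the series that stand apart (untreated numbered 3, ZM447439 numbered 1 and cytochalasin D numbered 1, both sorts) it was 5252 against 3915, so that the order of the conditions turned. Libraries that stand apart were picked by their spread in these data. Leaving them out, all 6 or only ZM447439 numbered 1, can narrow the spread by that choice. A p-value from such a fit is not separate evidence, here or below. Of the 858 genes with a lower interaction, 701 were higher in untreated 4N than in untreated 2N cells. Among those 701, 612 showed no difference that passed the test under ZM447439, 63 were higher in 4N cells in both conditions and 26 were lower in 4N cells under the drug. Another 84 were lower in 4N cells under ZM447439 and did not pass in untreated cells. Of the 459 genes with a higher interaction, 303 were lower in untreated 4N cells, and 274 of these did not pass under the drug. In 103 a rise in 4N cells passed under ZM447439 and no difference passed without it. The interaction and both of its parts come from the same 12 libraries, so these counts describe its make-up and are not separate evidence.

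**Figure D1:**
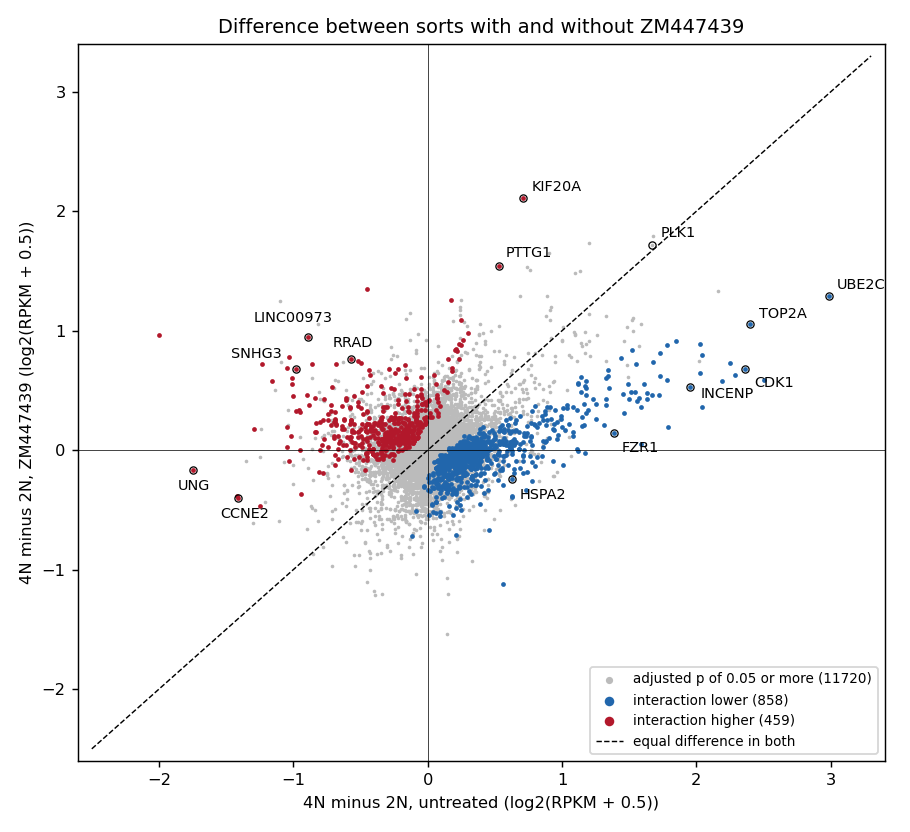
Each point is 1 of 13037 genes, with the 4N minus 2N difference in untreated cells on the x axis and under ZM447439 on the y axis, both on log2(RPKM + 0.5); blue marks the 858 genes with a lower and red the 459 with a higher interaction. Blue points lie mostly to the right of 0 and near 0 in height, and red points mostly to the left of 0; KIF20A and PTTG1 lie above the dashed line of equal difference on the right.

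The drug comparisons within a sort passed in more genes than the interaction did. The interaction joins 4 group means and has a larger SE, so these counts are not on equal terms. Against untreated cells of the same sort, ZM447439 raised 2560 genes (19.6%) and lowered 4630 (35.5%) in 4N cells, and raised 3073 (23.6%) and lowered 4231 (32.5%) in 2N cells. For the genes with a lower interaction the median drug effect was -0.38 in 4N cells and -0.02 in 2N cells. For those with a higher interaction it was 0.07 in 4N cells and -0.42 in 2N cells. By these medians the lower set had its larger drug difference in the 4N sort and the higher set in the 2N sort. The interaction is also the drug difference in 4N cells minus that in 2N cells. A gap between the sorts therefore follows from how the sets were chosen and is not separate evidence. By counts, 326 of the 858 were lowered in both sorts and 259 in 4N cells without a passing change in 2N cells. Another 151 were raised in 2N cells without a passing change in 4N cells. In 72 the drug lowered 4N and raised 2N cells, and 50 were raised in both sorts. Of the 459, 159 were lowered by the drug in both sorts and 108 in 2N cells without a passing change in 4N cells. A further 104 were raised in 4N cells without a passing change in 2N cells. In 53 the drug raised 4N and lowered 2N cells, and 35 were raised in both sorts.

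Mitotic genes held most of the lowest values among the named genes. The lowest belonged to UBE2C, which encodes an E2 enzyme that works with the anaphase-promoting complex. In untreated cells it measured 6.66, 7.28 and 3.45 RPKM in 2N cells and 47.1, 46.6 and 48.4 in 4N cells. Under ZM447439 the values were 3.72, 1.92 and 1.68 in 2N and 5.93, 6.31 and 6.87 in 4N cells. The sorts did not overlap in either condition, but the ratio of the 4N to the 2N mean was 8.17 without drug and 2.61 with it. The interaction was -1.70 ± 0.39 (SE) with an adjusted p of 0.0138 (limma, Benjamini-Hochberg over all genes, as throughout).

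In the list of Aurora kinases and the chromosomal passenger complex, 4 of 6 tested members had a lower interaction, 0 a higher one, and the median was -1.07. INCENP, the scaffold of the complex, went from 1.44, 1.49 and 0.9 RPKM in untreated 2N cells to 6.52, 5.87 and 6.48 in untreated 4N cells. With the drug it measured 0.77, 0.513 and 0.416 in 2N and 1, 1.04 and 1.04 in 4N cells, so that every treated 4N library lay below untreated 2N libraries 1 and 2. Its interaction was -1.42 ± 0.18 (adjusted p = 0.000437). AURKB, the kinase of the complex and a target of the drug, had 4N over 2N ratios of 3.6 untreated and 1.6 treated and an interaction of -1.20 ± 0.25 (adjusted p = 0.00761). CDCA8, which encodes borealin, stood at -1.24 ± 0.27 (adjusted p = 0.0092). AURKA, the spindle pole kinase, reached -0.95 ± 0.27 with an adjusted p of 0.0407, which became 0.0506 with cultures paired. BIRC5, which encodes survivin, did not pass: the value was 0.75 ± 0.31 (adjusted p = 0.148), and it passed as higher without both ZM447439 libraries numbered 1 (adjusted p = 0.000313) and without ZM447439 2N library 1 alone (adjusted p = 0.0047). It measured 12.4, 12.8 and 11.6 RPKM in untreated 2N and 21.2, 20.8 and 21.4 in untreated 4N cells, and under the drug 3.01, 1.35 and 1.22 in 2N and 4.35, 6.73 and 6.85 in 4N cells.

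Among mitotic cyclins and kinases 8 of 18 tested genes were lower and 0 higher, with a median of -0.47. CDK1, the kinase that drives entry into mitosis, measured 2.37, 2.97 and 1.66 RPKM in untreated 2N and 13.1, 13.5 and 14.8 in untreated 4N cells. Under ZM447439 it was at 1.82, 0.91 and 0.737 in 2N and 2.37, 1.94 and 1.91 in 4N cells. All treated 4N libraries lay within the range of the untreated 2N libraries, and the interaction was -1.68 ± 0.35 (adjusted p = 0.00843). CCNF, cyclin F, a substrate receptor of an SCF ubiquitin ligase, had 0.703, 0.814 and 0.49 RPKM in untreated 2N and 3.92, 3.85 and 5.19 in untreated 4N cells. With the drug the libraries gave 0.41, 0.323 and 0.253 in 2N and 0.528, 0.557 and 0.598 in 4N cells, and the interaction was -1.68 ± 0.16 (adjusted p = 6.21e-05). TTK, the MPS1 checkpoint kinase, and CKS2, a CDK-binding subunit, both came to -1.15 (adjusted p = 0.000504 and 0.00261). The cyclins CCNA2 and CCNB1 did not pass with all libraries. CCNA2 was at -0.54 ± 0.29 (adjusted p = 0.273) and CCNB1 at 0.37 ± 0.32 (adjusted p = 0.511), with 4N over 2N ratios of 2.24 untreated and 3.45 treated for CCNB1. Without both ZM447439 libraries numbered 1 CCNB1 passed as higher (adjusted p = 0.00863). PLK1, polo-like kinase 1, was at 0.05 ± 0.35 (adjusted p = 0.953), and passed as higher without the 6 libraries that stand apart (adjusted p = 0.000195).

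Of 16 tested genes of the anaphase-promoting complex and the spindle checkpoint, 7 were lower and 1 higher, with a median of -0.23. FZR1 gave the smallest p of any named gene. It encodes CDH1, the co-activator that keeps the complex active after anaphase and through G1. Its untreated values were 1.18, 1.24 and 1.18 RPKM in 2N and 4.08, 3.91 and 3.88 in 4N cells, and its treated values were 1.17, 1.23 and 1.22 in 2N and 1.3, 1.42 and 1.41 in 4N cells. All 9 libraries other than untreated 4N lay between 1.17 and 1.42 RPKM. The interaction was -1.26 ± 0.06 (adjusted p = 8.42e-08). Unlike most mitotic genes, FZR1 did not differ with the drug in 2N cells (0.01 on the log2 scale). ESPL1, separase, which opens cohesin rings, was at -1.21 ± 0.18 (adjusted p = 0.000914). CDC20, the co-activator that acts at anaphase, was at 0.54 ± 0.39 (adjusted p = 0.427). CDC20 passed as higher without ZM447439 2N library 1 (adjusted p = 0.0482) and without both ZM447439 libraries numbered 1 (adjusted p = 0.00813).

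At the centromere and kinetochore 7 of 20 tested genes were lower and 1 higher (median -0.37). HJURP, the chaperone that loads the centromeric histone CENP-A, had 4N over 2N ratios of 5.6 untreated and 1.82 treated and an interaction of -1.61 ± 0.27 (adjusted p = 0.00203). CENPA itself, the centromeric histone, was at 0.953, 0.938 and 0.886 RPKM in untreated 2N and 2.1, 1.98 and 2.22 in untreated 4N cells. Under the drug 2N cells had 0.669, 0.892 and 0.82 and 4N cells 0.699, 0.871 and 0.881, so the treated sorts overlapped (interaction -0.84 ± 0.11, adjusted p = 0.000375). The kinetochore motor CENPE and the microtubule-binding NDC80 gave -0.98 ± 0.14 and -0.90 ± 0.16 (adjusted p = 0.000807 and 0.00353).

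Spindle motors and microtubule-binding proteins were the list with the largest share, 14 of 18 lower and 0 higher, with a median of -0.84. FAM83D, a spindle protein, stood at -1.52 ± 0.24 (adjusted p = 0.00131), ARHGAP11A at -1.11 ± 0.19 (adjusted p = 0.00205), and the plus-end motor KIF18B at -1.06 ± 0.15 (adjusted p = 0.00089). CKAP2, another spindle protein, came to -1.06 ± 0.26 (adjusted p = 0.0199, or 0.0811 without both untreated libraries numbered 3). Outside the lists, PSRC1, which binds spindle microtubules, measured 5.14, 5.36 and 3.29 RPKM in untreated 2N and 19.4, 19.4 and 21.2 in untreated 4N cells. In treated cells it had 2.17, 1.72 and 1.82 in 2N and 2.69, 3.45 and 3.76 in 4N cells (interaction -1.38 ± 0.21, adjusted p = 0.00117). PIF1, a DNA helicase, was at 0.606, 0.561 and 0.386 in untreated 2N and 3.86, 4.42 and 5.22 in untreated 4N cells, and at 0.348, 0.207 and 0.208 against 0.591, 0.736 and 0.674 under the drug. It gave -1.66 ± 0.14 (adjusted p = 2.41e-05) and was higher in 4N cells in both conditions.

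Of 16 condensin, cohesin and topoisomerase genes 6 were lower and 0 higher, and all 16 lay below 0 (median -0.24). TOP2A, the topoisomerase that untangles sister chromatids, had 8.09, 8.66 and 6.34 RPKM in untreated 2N and 40.8, 40 and 47.3 in untreated 4N cells, and 4.64, 3.19 and 2.74 against 7.05, 7.84 and 8.24 with the drug. All treated 4N libraries lay within the range of the untreated 2N libraries, and the interaction was -1.35 ± 0.26 (adjusted p = 0.00487). NCAPG, a condensin subunit, was at -0.96 ± 0.17 (adjusted p = 0.00286). KPNA2P3, listed as a pseudogene of the importin gene KPNA2, was at -1.54 ± 0.19, and KPNA2 at -1.14 ± 0.24 (adjusted p = 0.000313 and 0.0083). Reads of such near-identical copies can be split by the counting, so neither value is certain.

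These mitotic calls depended on the added constant, the scale and the libraries used. ZM447439 lowered most of these genes in both sorts. Some, such as CCNF and PIF1, came to levels near the added constant of 0.5 RPKM, where a difference is compressed. UBE2C, TOP2A and PSRC1 stayed above it. CDK1 was at -1.67 with the constant at 0.1 (adjusted p = 0.0551) and at -1.68 with 0.5, so its value hardly moved. Why calls were lost was not tested. With the constant at 0.1 the spindle motor list had 4 lower members in place of 14, and mitotic cyclins and kinases 4 in place of 8. Without both untreated libraries numbered 3 these lists had 7 and 4 lower members, and the adjusted p of UBE2C was 0.0562 and of CDK1 0.053. On log2(RPM + 0.5), where RPM is the read count scaled to depth alone and long genes have larger values, 5 of 22 spindle motor genes and 3 of 20 cyclins and kinases were lower. On that scale the interaction of FAM83D was -1.11 (adjusted p = 0.221), of CENPE -0.54 (adjusted p = 0.457), of NDC80 -0.64 (adjusted p = 0.339), of AURKA -0.58 (adjusted p = 0.445), of CDCA8 -1.01 (adjusted p = 0.142), of TTK -1.05 (adjusted p = 0.12), of ESPL1 -0.99 (adjusted p = 0.0868), of KIF18B -0.94 (adjusted p = 0.0865) and of CDK1 -1.66 (adjusted p = 0.0578). UBE2C at -1.65 (adjusted p = 0.0248), CCNF at -1.91 (adjusted p = 0.000872), INCENP at -1.44 (adjusted p = 0.00653), FZR1 at -1.53 (adjusted p = 6.88e-08), HJURP at -1.59 (adjusted p = 0.033), AURKB at -1.17 (adjusted p = 0.018) and TOP2A at -1.32 (adjusted p = 0.01) passed there too. Of 92 named genes that passed on RPKM and could be tested in RPM, 71 passed on both scales. Over all genes, 741 of the 819 genes with a lower interaction and 386 of the 413 with a higher one that could be tested passed on the RPM scale as well.

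**Figure D2:**
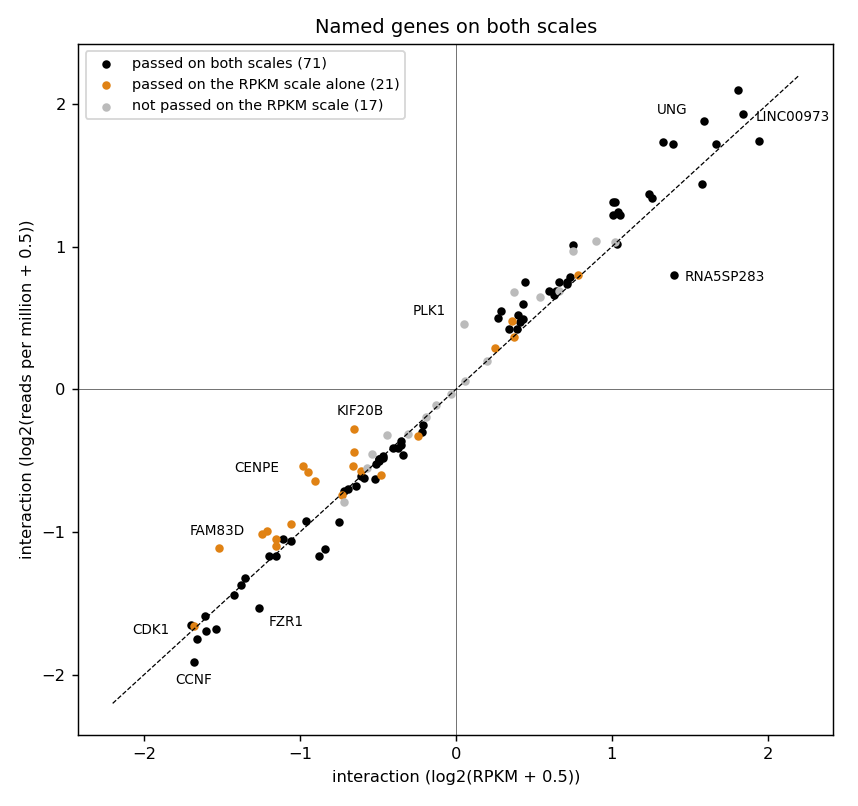
Each point is a named gene, with its interaction on log2(RPKM + 0.5) on the x axis and on log2(RPM + 0.5) on the y axis; black points passed on both scales (71), orange ones on the RPKM scale alone (21) and grey ones did not pass on the RPKM scale (17). The orange points at FAM83D, CENPE and KIF20B lie above the dashed line of equal values, nearer to 0 in RPM.

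A few mitotic genes went the other way. KIF20A, a kinesin that carries the chromosomal passenger complex to the central spindle, measured 22.8, 21.4 and 18.3 RPKM in untreated 2N and 36.4, 34.2 and 32.6 in untreated 4N cells. Under ZM447439 it was at 2.85, 0.941 and 0.941 in 2N and 5.19, 8.95 and 9.87 in 4N cells. The 4N over 2N ratio was 1.65 without drug and 5.07 with it. Its interaction was 1.39 ± 0.40 (adjusted p = 0.042). PTTG1, securin, the inhibitor of separase, had 12, 11.8 and 11.1 RPKM in untreated 2N, 17.3, 17.1 and 16.7 in untreated 4N, 2.91, 1.25 and 1.33 in treated 2N and 4.5, 6.84 and 6.87 in treated 4N cells. For PTTG1 the interaction was 1.01 ± 0.30 (adjusted p = 0.0439). In both genes the treated 2N library numbered 1 was higher, and the treated 4N library numbered 1 lower, than the other 2 of its group. Without both ZM447439 libraries numbered 1 the adjusted p was 0.000116 for KIF20A and 8.58e-05 for PTTG1. With cultures paired it was 0.0887 and 0.0966, and without both untreated libraries numbered 3 it was 0.104 and 0.116. CENPH, a kinetochore protein chosen after its values were seen, was at 0.42 ± 0.11 (adjusted p = 0.0278).

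**Figure D3:**
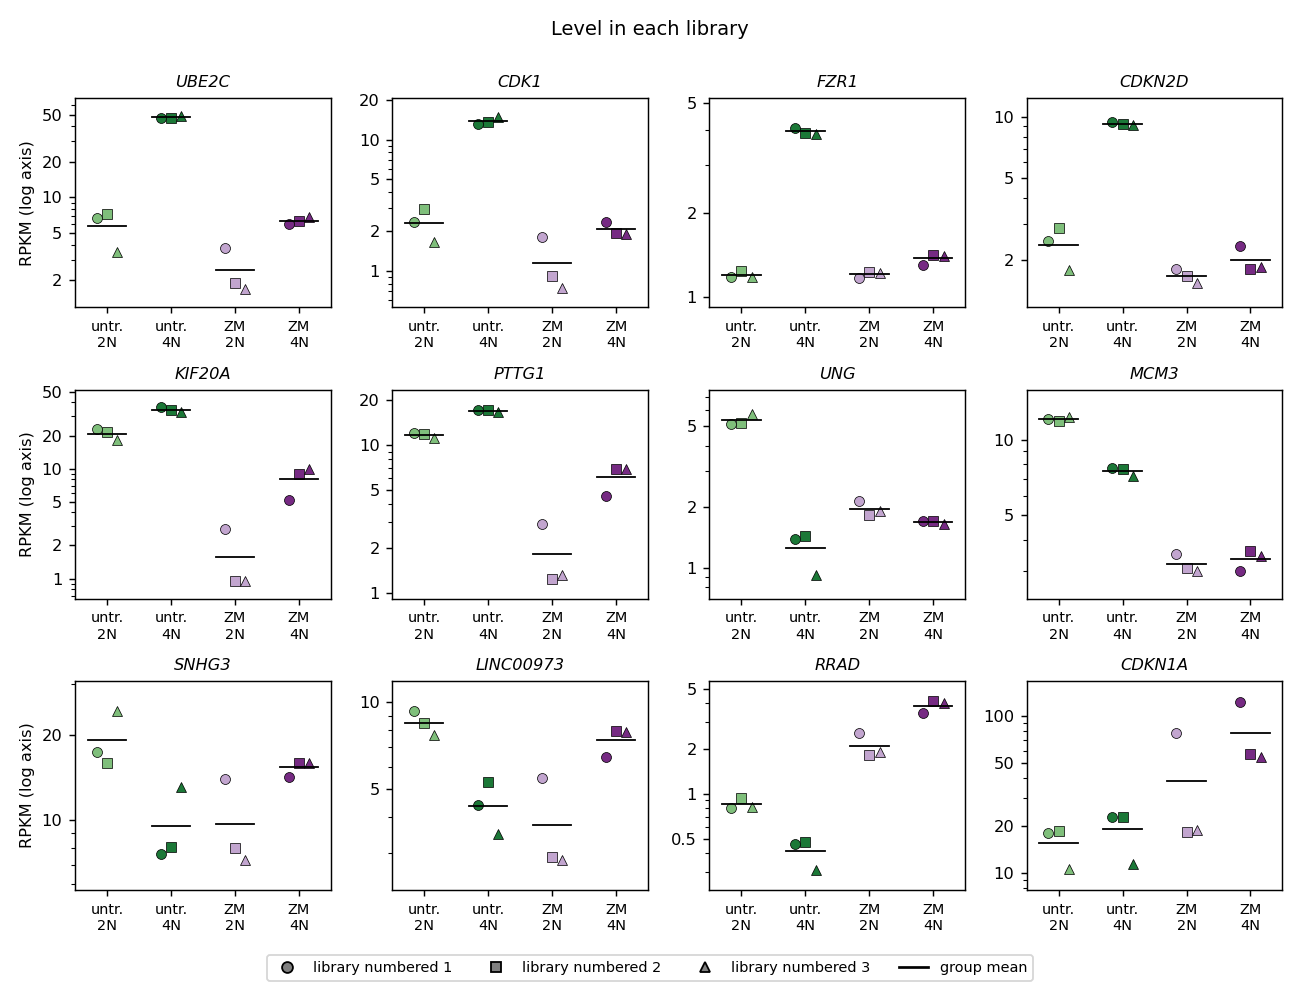
RPKM on log axes in each of the 12 libraries for 12 genes, grouped by treatment (untr., untreated; ZM, ZM447439) and sort; marker shape gives the library number and the bar the group mean. UBE2C, CDK1, FZR1 and CDKN2D are high in untreated 4N cells alone, KIF20A and PTTG1 have a wider gap between the sorts under ZM447439, and RRAD falls from 2N to 4N without drug and rises with it.

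Inhibitors of cyclin-dependent kinases that passed were all lower. CDKN2D, which encodes the INK4 inhibitor p19, had 2.47, 2.84 and 1.77 RPKM in untreated 2N and 9.41, 9.23 and 9.11 in untreated 4N cells. With the drug it was at 1.8, 1.67 and 1.53 in 2N and 2.32, 1.79 and 1.83 in 4N cells, so the treated sorts overlapped. The interaction was -1.60 ± 0.16 (adjusted p = 6.21e-05). CDKN2C, the INK4 inhibitor p18, was at -0.72 ± 0.13 (adjusted p = 0.00427) and CDKN1B, which encodes p27, at -0.59 ± 0.17 (adjusted p = 0.0471). In all, 3 of 8 tested inhibitors were lower and 0 higher. CDKN1A, which encodes p21, the inhibitor induced by p53, did not pass: its value was 1.02 ± 0.77 (adjusted p = 0.45), and 0.0187 was the adjusted p with cultures paired. It measured 17.8, 18.4 and 10.5 RPKM in untreated 2N, 22.5, 22.7 and 11.4 in untreated 4N, 77.7, 18.3 and 18.7 in treated 2N and 123, 56.8 and 54.9 in treated 4N cells. Within each treated library number the 4N library was the higher, and the library numbered 1 was the highest in both sorts.

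Of 4 tested G1 cyclins and CDKs 1 was higher (median -0.06), and of 6 E2F factors and retinoblastoma proteins 1 was higher (median 0.06). In lists this short 1 call says little beside the 3.52% of all genes called higher. CCNE2, a G1/S cyclin, was at 2.3, 2.42 and 2.65 RPKM in untreated 2N and 0.702, 0.722 and 0.437 in untreated 4N cells, and at 0.893, 0.894 and 0.854 against 0.534, 0.571 and 0.539 with the drug. It fell with 4N content in both conditions, by 1.41 without drug and by 0.40 with it on the log2 scale, and the interaction was 1.01 ± 0.11 (adjusted p = 9.02e-05). E2F1, the transcription factor of S phase entry, gave 0.63 ± 0.10 (adjusted p = 0.00191), from 4N over 2N ratios of 0.54 untreated and 0.85 treated. CCND1, cyclin D1, was at -0.19 ± 0.37 (adjusted p = 0.801). CCNE1 was below the filter, with a mean of 0.371 RPKM, and was not tested.

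Of 14 tested origin licensing and firing genes 7 were higher and 0 lower, with a median of 0.36. MCM3, a subunit of the replicative helicase, measured 12.1, 11.9 and 12.3 RPKM in untreated 2N and 7.69, 7.65 and 7.19 in untreated 4N cells. Under ZM447439 the values were 3.51, 3.1 and 3.02 in 2N and 3, 3.62 and 3.46 in 4N cells. The untreated sorts were clearly apart and the treated sorts overlapped, at a level below either. Its interaction was 0.71 ± 0.10 (adjusted p = 0.000525). MCM2, MCM5 and MCM6, of the same helicase, gave 0.64, 0.66 and 0.60, each with an SE of at most 0.10 and an adjusted p of at most 0.0014. Of 19 replication fork genes 3 were higher and 0 lower, with a median of 0.02, among them the chromatin assembly subunits CHAF1B at 0.43 ± 0.06 and CHAF1A at 0.34 ± 0.07 (adjusted p = 0.000411 and 0.00517). PCNA, the sliding clamp, was at 0.66 ± 0.26 with an adjusted p of 0.133, or 0.00132 with cultures paired and 0.0499 without both ZM447439 libraries numbered 1.

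UNG, the glycosylase that removes uracil from DNA, had the highest value in the lists of replication and repair genes. Its libraries gave 5.13, 5.16 and 5.77 RPKM in untreated 2N and 1.39, 1.43 and 0.924 in untreated 4N cells. With the drug they gave 2.14, 1.83 and 1.9 in 2N and 1.7, 1.71 and 1.65 in 4N cells. The 4N over 2N ratio was 0.233 without and 0.861 with the drug, and the interaction 1.59 ± 0.13 (adjusted p = 1.8e-05). Among 12 dNTP supply and uracil removal genes 2 were higher and 1 lower. DCTPP1, a nucleotide pyrophosphatase, was at 0.39 ± 0.09 and DCK, deoxycytidine kinase, at -0.24 ± 0.06 (adjusted p = 0.0138 and 0.0217). DCK did not pass in RPM (adjusted p = 0.0515) or with the constant at 0.1 (adjusted p = 0.0579). RRM2, a ribonucleotide reductase subunit, was at -0.13 ± 0.29 (adjusted p = 0.824). In the homologous recombination and Fanconi list, with 3 higher and 1 lower of 10, FAM111B gave 0.78 ± 0.08 (adjusted p = 6.44e-05). In RPM FAM111B was at 0.80 (adjusted p = 0.0634). The histone genes H2AC25 and H2AC11 were higher, at 1.03 ± 0.17 and 1.02 ± 0.17 (adjusted p = 0.00181 and 0.0018), the 2 calls among 10 tested histone genes; only polyadenylated RNA was measured, which is a minor form of these transcripts.

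Promoter letters are shown for 3 genes of the lower and 2 of the higher set. CHR and CCAAT elements and E2F sites are the elements known for mitotic and G1/S genes. The genes shown are picked examples, each with matches. Whether any marked match is a working element was not tested. Most promoters of either set held no CHR match and no E2F match. Each line gives the 170 bases before the annotated start, 5′ to 3′ on the strand of the gene, from RefSeq (GRCh38.p14). Capitals mark matches on either strand to 3 elements. CHR matches further out, not printed, stood 233 bases before the start in CCNF and 246 in MCM6. The CCAAT box was searched as CCAAT. The CHR element was searched with the spelling TTTGAA. An alternative CHR spelling, also searched, was TTCGAA. E2F sites were searched as TTCCCGCC or TTTGGCGC.
CCNF, chr16:2429277-2429446, plus strand: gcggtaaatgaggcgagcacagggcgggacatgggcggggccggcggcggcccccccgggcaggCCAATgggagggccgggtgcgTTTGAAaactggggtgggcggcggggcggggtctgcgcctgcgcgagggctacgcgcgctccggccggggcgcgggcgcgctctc
CDK1, chr10:60778161-60778330, plus strand: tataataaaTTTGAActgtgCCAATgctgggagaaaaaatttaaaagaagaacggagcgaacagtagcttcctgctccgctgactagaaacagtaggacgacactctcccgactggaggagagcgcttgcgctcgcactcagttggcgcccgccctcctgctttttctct
INCENP, chr11:62123841-62124010, plus strand: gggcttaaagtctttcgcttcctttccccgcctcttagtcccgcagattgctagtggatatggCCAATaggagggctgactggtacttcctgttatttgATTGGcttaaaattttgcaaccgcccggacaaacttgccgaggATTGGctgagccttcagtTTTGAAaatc
E2F1, chr20:33686386-33686555, minus strand: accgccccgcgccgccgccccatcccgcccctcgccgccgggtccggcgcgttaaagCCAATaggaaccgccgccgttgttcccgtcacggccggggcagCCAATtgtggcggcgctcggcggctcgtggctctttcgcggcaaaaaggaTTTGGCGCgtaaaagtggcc
MCM6, chr2:135876444-135876613, minus strand: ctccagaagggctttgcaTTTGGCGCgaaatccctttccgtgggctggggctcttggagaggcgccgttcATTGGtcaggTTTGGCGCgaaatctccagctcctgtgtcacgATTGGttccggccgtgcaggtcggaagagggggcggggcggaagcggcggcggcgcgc

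In the 250 bases before the start, a CHR match stood in 88 of 578 promoters of the lower set (15.2%) and in 19 of 265 of the higher set (7.17%), against 8.99% of the 6704 tested genes with a promoter in the table and 14.6% of all 27305 promoters. A CHR and a CCAAT match together stood in 9.34% of the lower and 3.02% of the higher set, against 3.97% of tested genes. A CCAAT match, with or without a CHR match, was found in 42.9% and 39.2%, against 36.5%, and an E2F match in 5.19% and 6.79%, against 5.47%. These are shares of promoters holding the letters, with no test and no statement about binding.

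Non-coding RNAs held the highest interactions among the named genes. LINC00973, a long intergenic RNA, measured 9.32, 8.5 and 7.69 RPKM in untreated 2N and 4.4, 5.29 and 3.5 in untreated 4N cells. With ZM447439 it was at 5.48, 2.92 and 2.85 in 2N and 6.45, 7.96 and 7.89 in 4N cells. It fell with 4N content in untreated cells and rose with it in treated cells, without overlap in either, and the interaction was 1.84 ± 0.27 (adjusted p = 0.000844). SNHG3, a snoRNA host transcript, had 17.4, 15.9 and 24.2 RPKM in untreated 2N, 7.6, 8.05 and 13.1 in untreated 4N, 14, 7.97 and 7.25 in treated 2N and 14.2, 15.9 and 15.9 in treated 4N cells (interaction 1.67 ± 0.31, adjusted p = 0.00449). The untreated library numbered 3 was the highest of its group in both sorts, and the treated 2N library numbered 1 stood near the treated 4N level. TBC1D22A-DT, a divergent transcript, gave 1.94 ± 0.25 and ADIRF-AS1, an antisense transcript, 1.81 ± 0.26 (adjusted p = 0.000448 and 0.000844). ADIRF, the gene that ADIRF-AS1 is named for, was at 1.00 ± 0.14 (adjusted p = 0.000775). The libraries did not mark strand, so reads of such partners cannot be told apart.

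Several of the highest values rested on few reads. TBC1D22A-DT held an implied 26 to 165 reads per library. MIR5587, the highest named value at 2.95 ± 0.73 (adjusted p = 0.0209), held an implied 0 to 13 reads per library. MIR3176 at 1.80, MIR3936 at 1.57 and RNA5SP174 at 1.74 held at most 13, 17 and 15 reads. SNORD88B at 1.61 (adjusted p = 0.0275, or 0.0535 with cultures paired) held 5 to 64 reads, RNA5SP283 at 1.40 held 14 to 57, and DUX4L50 at 1.58 held 23 to 112. Without both untreated libraries numbered 3 the adjusted p was 0.0973 for MIR5587, 0.0854 for RNA5SP283, 0.0509 for MIR3176 and 0.104 for SNORD88B. MIR5587 passed in 8 of the 12 fits that leave out a single library. Small RNAs are not captured as such by a polyadenylated library, and reads at these genes may belong to a host or to a copy elsewhere. By gene type, a grouping chosen after values were seen, 37 of 283 tested lincRNAs were higher (13.1%) and 9 lower (3.18%). Protein-coding genes showed the reverse, with 250 of 7750 higher (3.23%) and 682 lower (8.8%).

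Ribosome biogenesis genes were among the lists with the largest share of higher values. Of 18 tested members 8 were higher and 0 lower, with a median of 0.29. Without both untreated libraries numbered 3 the count was 4, and without both ZM447439 libraries numbered 1 it was 15. GNL3, nucleostemin, measured 8.23, 7.9 and 7.92 RPKM in untreated 2N and 5.42, 5.53 and 4.89 in untreated 4N cells, and 4.88, 4.4 and 4.33 against 4.67, 5.44 and 5.41 under the drug. The untreated sorts were apart and the treated sorts overlapped in library 1 (interaction 0.73 ± 0.14, adjusted p = 0.00509). NOLC1, a nucleolar phosphoprotein, was at 0.71 ± 0.16 (adjusted p = 0.0139), NOP2, an rRNA methyltransferase, at 0.43 ± 0.10 (adjusted p = 0.0136) and MYBBP1A at 0.41 ± 0.10 (adjusted p = 0.0152). Of 30 ribosomal protein genes 0 passed by limma (1 at an unadjusted p under 0.05), with values from -0.20 to 0.10; after quantile normalization 2 were higher and the median turned from -0.04 to 0.11.

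Opposite differences in the 2 conditions, each passing its own test, were found in 52 genes with a passing interaction: 26 fell in 4N cells without drug and rose with it, and 26 did the reverse. RRAD, a small Ras-like GTPase, had 0.802, 0.937 and 0.814 RPKM in untreated 2N and 0.457, 0.478 and 0.309 in untreated 4N cells, and 2.54, 1.82 and 1.89 against 3.44, 4.14 and 4 under ZM447439. All treated libraries lay above all untreated ones, and the interaction was 1.33 ± 0.23 (adjusted p = 0.00286). DANCR, a long non-coding RNA, came to 1.24 ± 0.18 and MINCR to 1.05 ± 0.14 (adjusted p = 0.000925 and 0.000525). DUX4L50, with few reads, was at 1.58 ± 0.19. On the other side HSPA2, a heat shock protein of the HSP70 family, measured 1.21, 1.33 and 1.05 in untreated 2N and 2.3, 2.12 and 1.97 in untreated 4N cells. Under the drug it had 1.04, 0.97 and 0.976 in 2N and 0.862, 0.754 and 0.684 in 4N cells, and its interaction was -0.88 ± 0.09 (adjusted p = 7.35e-05).

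**Figure D4:**
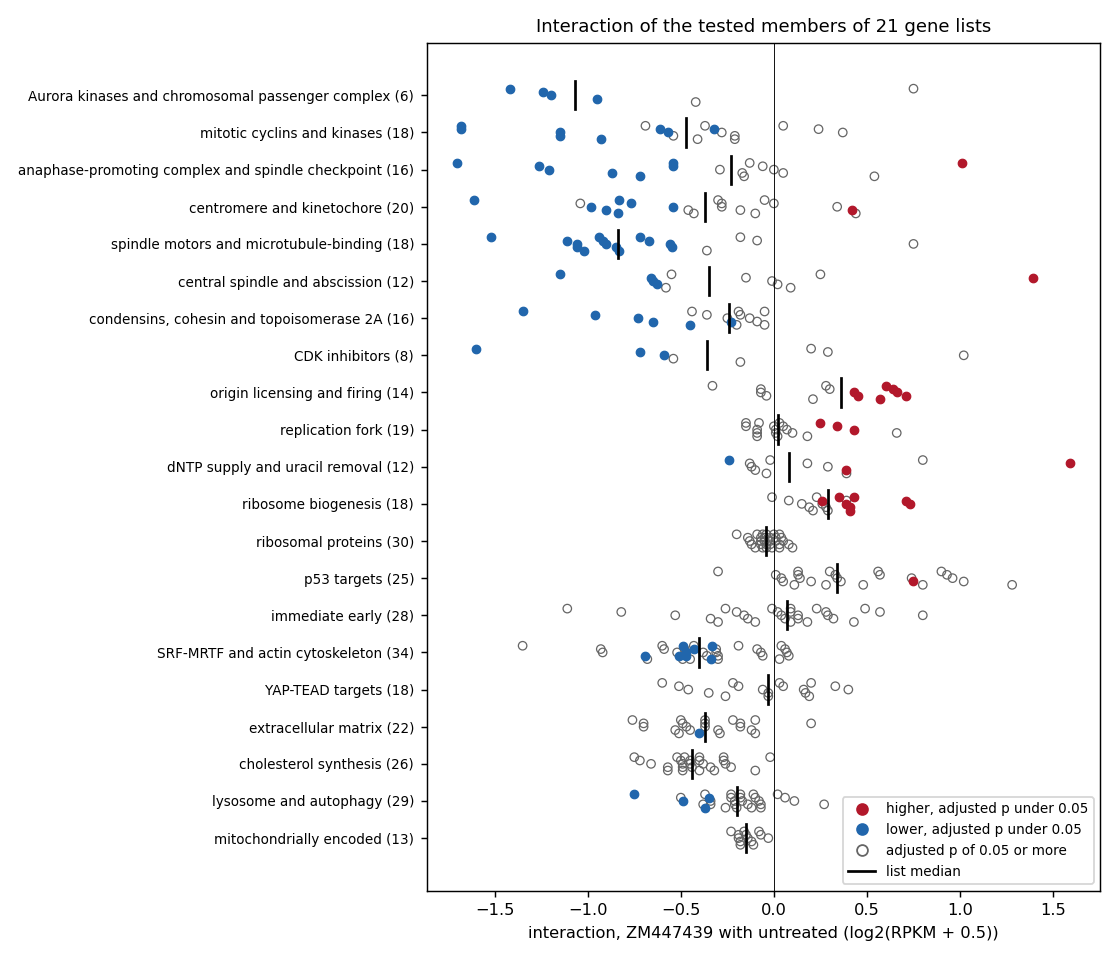
The interaction of each tested member of 21 gene lists on log2(RPKM + 0.5), with the number tested in brackets; filled points passed the test (red higher, blue lower), open ones did not, and the bar is the list median. The mitotic lists reach to about -1.7 with filled blue points, origin licensing and ribosome biogenesis hold filled red points, and cholesterol synthesis lies below 0 with open points alone.

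Several actin cytoskeleton genes were lower. Of 34 tested targets of SRF and MRTF and other actin cytoskeleton genes 8 passed, all lower, and the median was -0.40; with cultures paired 26 passed. The count was 18 without both ZM447439 libraries numbered 1 and without ZM447439 4N library 1 alone, 5 after quantile normalization, 4 without ZM447439 4N library 2, and 5 without ZM447439 4N library 3, untreated 2N library 3 or untreated 4N library 1 or 2. ACTG1, cytoplasmic gamma actin, measured 431, 432 and 400 RPKM in untreated 2N and 488, 478 and 440 in untreated 4N cells, and 382, 416 and 435 against 362, 318 and 312 with the drug. Treated 4N libraries were the lowest, and the interaction was -0.47 ± 0.09 (adjusted p = 0.00539). After quantile normalization ACTG1 did not pass (-0.25, adjusted p = 0.134). MYL6, a myosin light chain, had -0.49 ± 0.09, ILK, integrin-linked kinase, -0.51 ± 0.09, the focal adhesion protein ZYX -0.47 ± 0.11 and PDLIM7, an actin-associated PDZ-LIM protein, -0.69 ± 0.16 (adjusted p = 0.00286, 0.00403, 0.0178 and 0.0135). ACTB was at -0.31 ± 0.14 with an adjusted p of 0.183, or 0.0292 with cultures paired and 0.0103 without both ZM447439 libraries numbered 1. The YAP targets CCN1 and CCN2 were at 0.20 ± 0.57 and -0.03 ± 0.62 (adjusted p = 0.869 and 0.985), and 0 of 18 tested YAP-TEAD targets passed by limma (3 at an unadjusted p under 0.05), or 7, all lower, with cultures paired.

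Several other lists had mostly negative values. Over all genes 6.58% were called lower. All 26 cholesterol synthesis genes lay below 0, with a median of -0.44, yet 0 passed by limma, and 0 had an unadjusted p under 0.05. With cultures paired 3 passed, all lower, and without the 6 libraries that stand apart 25 passed, all lower. As those 6 were picked by their spread, the 25 calls are not separate evidence. HMGCS1, an early enzyme of the pathway, was at -0.57 ± 0.62 (adjusted p = 0.621). Of 22 extracellular matrix genes 21 lay below 0 (median -0.37) and 1 passed, MMP14, a membrane metalloproteinase, at -0.40 ± 0.10 (adjusted p = 0.0229); 12 passed, all lower, with cultures paired, 4 without both ZM447439 libraries numbered 1 and 0 after quantile normalization. MMP14 passed in 7 of the 12 fits that leave out a single library. Lysosome and autophagy genes had 4 lower calls of 29. They were MCOLN1, a lysosomal calcium channel, at -0.75 ± 0.22, GRN, progranulin, at -0.49 ± 0.15, HEXA, a hexosaminidase subunit, at -0.37 ± 0.10, and ATP6AP1, of the proton pump, at -0.35 ± 0.09 (adjusted p = 0.0476, 0.0493, 0.0317 and 0.0319). For GRN the treated 2N libraries were the highest, at 58.4, 77.8 and 83.1 RPKM, with 54.7, 53.5 and 52.4 in treated 4N and 33.6 to 41.4 in untreated cells. After quantile normalization 1 of these 29 genes passed, as did 1 without both untreated libraries numbered 3 and 11 without both ZM447439 libraries numbered 1.

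Targets of p53 had mostly positive values, while their share of calls was near the 3.52% of all genes called higher. Of 25 tested targets 24 had a value above 0, with a median of 0.34, but 1 passed, XPC, a damage sensor of nucleotide excision repair, at 0.75 ± 0.21 (adjusted p = 0.0377). With cultures paired 14 were higher and 1 lower. Without both ZM447439 libraries numbered 1 there were 7 higher, and without both untreated libraries numbered 3 0 passed. XPC had 1.13, 1.09 and 1.19 RPKM in untreated 2N, 0.945, 0.944 and 1.01 in untreated 4N, 1.81, 1.08 and 1.09 in treated 2N and 2.64, 2.06 and 2 in treated 4N cells. MDM2, the ubiquitin ligase of p53, was at 1.77, 1.8 and 1.49, then 2.01, 2.06 and 1.88, then 5.71, 1.4 and 1.4, then 8.52, 4.32 and 4.39 in the same order. As for CDKN1A, the treated library numbered 1 was far above the others in both sorts. The interaction of MDM2 was 0.90 ± 0.54 with an adjusted p of 0.33, or 0.0185 with cultures paired and 0.0141 without both ZM447439 libraries numbered 1. PIDD1, a p53-induced component of the PIDDosome, which responds to extra centrosomes, was at 0.40 ± 0.10 and PLK4, the kinase of centriole duplication, at -0.61 ± 0.17 (adjusted p = 0.0164 and 0.0329). PLK4 passed in 7 of the 12 fits that leave out a single library, and on the RPM scale it was at -0.57 (adjusted p = 0.341). Without both untreated libraries numbered 3 the adjusted p was 0.155 for PLK4 and 0.0919 for PIDD1.

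Stress and signalling lists, and other short lists, differed in their share of calls. Over all genes tested 6.58% were lower and 3.52% higher. IL1B, interleukin 1 beta, was at 1.04 ± 0.28 (adjusted p = 0.0322) among 11 inflammatory genes, with 2.94, 2.56 and 1.53 RPKM in untreated 2N, 1.63, 1.59 and 0.848 in untreated 4N, 3.85, 2.7 and 2.98 in treated 2N and 4.91, 4.01 and 4.29 in treated 4N cells. ATF4, the transcription factor of the integrated stress response, was at -0.49 ± 0.10 and its target PSPH at 0.29 ± 0.08 (adjusted p = 0.00699 and 0.0355), the 2 calls of 22. In the heat shock list 3 were higher and 2 lower of 20, with HSPA8, the constitutive HSP70, at -0.61 ± 0.18 and HSP90AB1 at 0.37 ± 0.11 (adjusted p = 0.0498 and 0.0459). The tubulin TUBB6 was at -0.64 ± 0.14 (adjusted p = 0.00842), 1 of 19 tubulin and chaperonin genes. Of nuclear lamina and envelope genes 3 of 12 were lower, ANKLE2 at -0.35 ± 0.06, SUN1 at -0.22 ± 0.05 and LEMD2 at -0.21 ± 0.06 (adjusted p = 0.00352, 0.00909 and 0.042). Immediate early genes (28 tested), glycolysis and hypoxia genes (23) and the mitochondrially encoded transcripts (13) had 0 calls by limma, with 1, 3 and 0 at an unadjusted p under 0.05. With cultures paired 5 immediate early genes were higher and 5 lower. MYC was at 0.06 ± 0.40 (adjusted p = 0.951).

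The same interaction computed for cytochalasin D uses the same untreated libraries, so its values stand beside those of ZM447439 without a comparison. UBE2C was at -1.81 with cytochalasin D and -1.70 with ZM447439, FZR1 at -1.32 and -1.26, UNG at 1.65 and 1.59, and MCM3 at 0.62 and 0.71. KIF20A was at 0.11 and 1.39, PTTG1 at 0.18 and 1.01, and LINC00973 at 0.78 and 1.84. The difference between both drugs' interactions, in which the untreated libraries cancel, passed in 0 genes by limma, with 753 at an unadjusted p under 0.05; without both ZM447439 libraries numbered 1 it passed in 443.

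How many genes passed depended on which libraries were used. Leaving out 1 library in turn gave 784 to 2429 genes: 784 without ZM447439 4N library 3, 814 without ZM447439 4N library 2, 841 without untreated 4N library 1 and 2429 without ZM447439 2N library 1. Without both untreated libraries numbered 3 it was 719, and without both ZM447439 libraries numbered 1 it was 2689. In that last setting 1255 of the 1317 genes passed again. Among the named genes, XPC and MCOLN1 passed in 1 of the 12 fits that leave out a single library, KIF20A, PTTG1, GRN, HSP90AB1 and LEMD2 in 2, AURKA, HSPA8 and ATP6AP1 in 3, and CDKN1B, IL1B, PSPH, HEXA and SNORD88B in 4. The largest adjusted p among these fits was 0.0906 for AURKA (without untreated 2N library 3), 0.109 for CDKN1B (without untreated 2N library 1) and 0.0958 for XPC (without ZM447439 2N library 2).

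**Figure D5:**
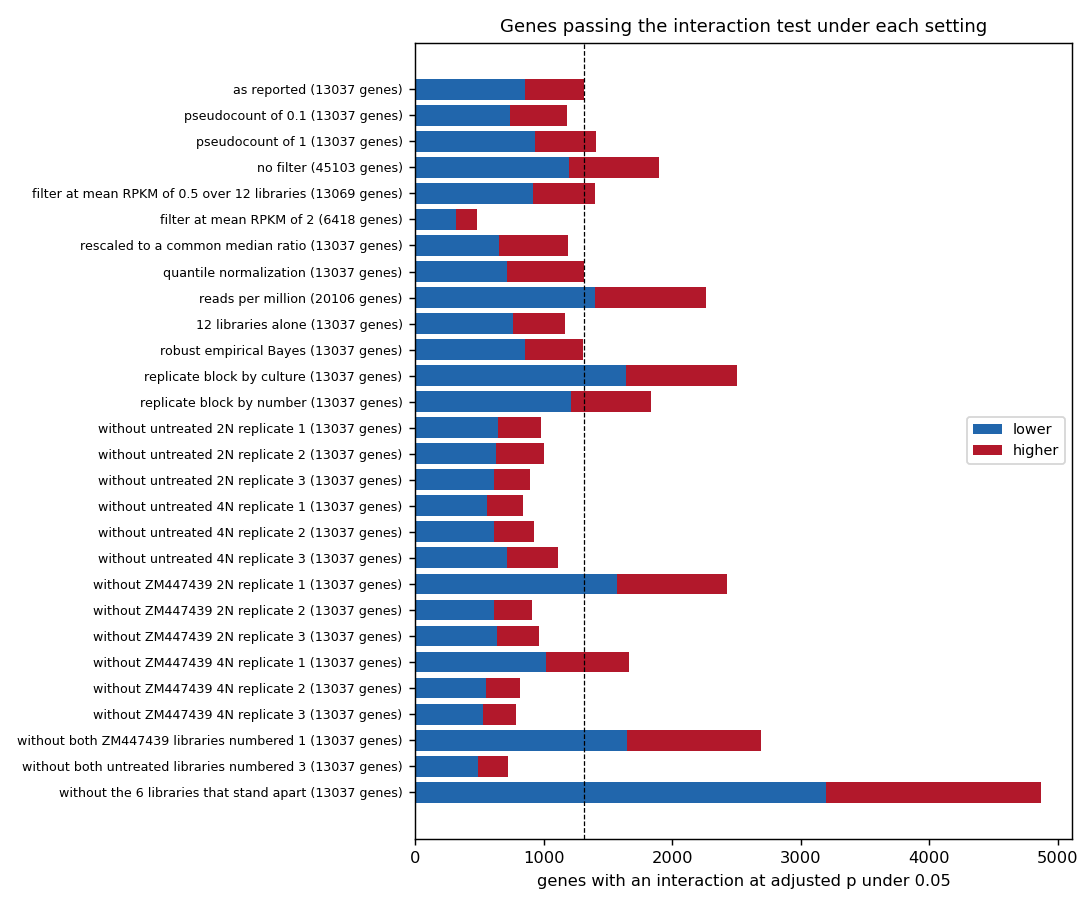
Bars count genes with an interaction at an adjusted p under 0.05 under each setting, blue for lower and red for higher, with the number of genes tested in brackets; the dashed line marks the 1317 genes reported. Settings that leave out only ZM447439 libraries numbered 1 lie to the right of the line, those that leave out only untreated libraries numbered 3 to its left and the setting without all 6 libraries that stand apart furthest right, and lower genes outnumber higher ones in every bar.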

How the data were processed

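RNA of sorted hTERT-RPE1 cells was sequenced as polyadenylated, non-stranded libraries, per the labels' protocols. The authors deposited 1 table of RPKM for 57773 genes and 18 libraries; CASAVA 1.8.2, TopHat2, edgeR and hg19 are named in the submitters' processing notes, and the sources used here do not give what each did. Groups and replicate numbers came from the labels, which describe 3 biological replicates. Values were analysed as log2(RPKM + 0.5) in the 13037 genes averaging 0.5 RPKM or more, so a fold change understates that of low genes. limma 3.58.1 in R 4.3.3 fitted 1 mean per group over all 18 libraries, with a trend in the empirical Bayes step, 2-sided tests and Benjamini-Hochberg adjustment over all genes tested (threshold 0.05). Reads were implied from whole steps in low values; libraries of a group differed by more than counting noise. Same-numbered 2N and 4N libraries deviated together (r of 0.19, 0.19 and 0.45 untreated, 0.44, 0.28 and 0.26 with ZM447439), so pairing by number was tried. Some libraries of different number correlated as much (0.26 and 0.22 between untreated 1 and 2, 0.32 and 0.17 between ZM447439 2 and 3), so the pairing rests on the number and is not certain. Named genes were the 12 highest and 12 lowest called genes averaging 1 RPKM or more, up to 4 called members per list of largest change, a set of fixed symbols, and up to 8 called genes with opposite sort differences. Genes, members and lists (34 gene lists and 3 marker lists) were chosen with earlier results of these data known. Promoters were read from RefSeq, GRCh38.p14. Alternatives were the constant, the filter, scaling, reads scaled to depth alone (RPM), pairing, robust estimation and left-out libraries. Some named genes are not reported here.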

Additional observations from a re-analysis of the deposited data

Results flagged for a closer look

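The difference between sorts differed between untreated and ZM447439-treated cells, by the test of the difference itself, in 1317 genes, 459 higher and 858 lower. Among the lowest named values were UBE2C at -1.70, CCNF at -1.68, CDK1 at -1.68, PIF1 at -1.66, HJURP at -1.61 and CDKN2D at -1.60. They were followed by KPNA2P3 at -1.54, FAM83D at -1.52, INCENP at -1.42, PSRC1 at -1.38, TOP2A at -1.35 and FZR1 at -1.26. The highest were MIR5587 at 2.95, TBC1D22A-DT at 1.94, LINC00973 at 1.84, ADIRF-AS1 at 1.81, MIR3176 at 1.80, RNA5SP174 at 1.74, SNHG3 at 1.67 and SNORD88B at 1.61. Next came UNG at 1.59, DUX4L50 at 1.58, MIR3936 at 1.57 and RNA5SP283 at 1.40. Genes with opposite differences in the sorts included RRAD at 1.33, DANCR at 1.24 and MINCR at 1.05.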

How the results depend on the processing

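The count of 1317 genes moved with the filter, the scale and the libraries used, and lower genes outnumbered higher ones in all 27 alternatives. A filter at a mean of 2 RPKM gave 481 genes (161 higher, 320 lower), no filter gave 700 higher, and RPM gave 2261 (859 higher, 1402 lower). Leaving out 1 library gave 784 to 2429 genes, 253 to 861 higher and 531 to 1568 lower. Without both ZM447439 libraries numbered 1 there were 2689 (1042 and 1647), without both untreated libraries numbered 3 719 (231 and 488), and without all 6 libraries that stand apart 4870 (1676 and 3194); the cause was not tested.

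With cultures paired the interaction had 2505 genes (862 higher, 1643 lower), of which 1243 were among the 1317. In that fit 4N against 2N under ZM447439 had 2019 in place of 998. This pairing changed no other call of a named gene beyond those given beside their results. A block by number across all treatments gave 1832 genes. With that block GRN did not pass (adjusted p = 0.0561) and PCNA passed as higher (adjusted p = 0.0272).

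Untreated 4N against 2N, with 2272 genes, gave 3652 with no filter, 875 at a mean of 2 RPKM, 4097 in RPM, 1218 without both untreated libraries numbered 3 and 3915 without the 6 libraries. ZM447439 4N against 2N gave 1534 in RPM, 2758 without both ZM447439 libraries numbered 1, 5252 without the 6, and 208 to 2722 with 1 library left out. ZM447439 against untreated in 4N cells, with 7190 genes, gave 11579, 3621 and 11485 with no filter, the higher filter and RPM, and in 2N cells, with 7304, it gave 11487, 3806 and 11313. The difference between the interactions of both drugs, with 0 genes, gave 4 with no filter, 0 to 267 with 1 library left out, 443 with both ZM447439 libraries numbered 1 left out and 1621 without the 6.

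No named gene that passed (97) changed direction under these alternatives; other genes were not followed. Among named genes that did not pass, without the 6 libraries CCNA2 came to 0.05, MKI67 to 0.12, CCND1 to 0.01 and RRM2 to 0.19. RRM2 came to 0.08 with ZM447439 libraries numbered 1 left out, PLK1 to -0.20 with a constant of 1, and CCN2 to 0.00 rescaled and 0.09 quantile normalized. With 1 library left out, values ran from -0.15 to 0.37 for PLK1, -0.43 to 0.22 for CCND1, -0.32 to 0.15 for RRM2, -0.49 to 0.29 for CCN2, -0.25 to 0.56 for CCN1 and -0.13 to 0.29 for MYC.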
